A study of Homo sapiens with 6 samples.

Results

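The BCL2 family decides whether the outer membrane of the mitochondrion stays closed. Its anti-apoptotic members (MCL1, BCL2 and BCL2L1, which encodes BCL-XL) hold pro-apoptotic relatives in check, the BH3-only members (BCL2L11 or BIM, BBC3 or PUMA, PMAIP1 or NOXA, BID and BMF) sense stress and bind them, and the effectors BAX and BAK1 form the pores that release cytochrome c. Malignant plasma cells are known for their dependence on MCL1, and stress of the endoplasmic reticulum (ER) is known to reach this family through transcription of BH3-only genes. The 10 genes described here were taken by name as members of the family, and all 10 were among the 11048 genes listed in the deposited expression values.

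The cells were MM1.S, a human multiple myeloma line, so every value comes from a single line in culture. All groups were harvested 6 h after addition of the DMSO vehicle, 3 µM CCF642, an inhibitor of the disulfide isomerase PDIA1, or 3 µM CCF642-34, an analogue designed from CCF642. There were 3 groups of 2 libraries, 6 in all, of polyadenylated RNA. The labels do not say whether the replicates came from separate cultures, so p-values measure only the spread between these libraries, which may be technical. That spread was estimated largely across genes, with 42.9 prior against 3 residual degrees of freedom. The p-values therefore do not rest on the replicates of a single gene alone.

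Library totals ran from 20567313 to 28459677 reads, and no pair of replicates agreed within counting noise. Of 10 plasma cell or myeloma markers 10 were listed. Their summed level was 9904 to 10003 CPM, the reads counted on a gene relative to the total of its library, with DMSO, 7020 to 7054 CPM with CCF642 and 7866 to 7911 CPM with CCF642-34. These markers did not move together. JCHAIN had 4321 and 4316 CPM with DMSO, 1792 and 1875 CPM with CCF642, and 2339 and 2357 CPM with CCF642-34. SDC1 was likewise at its highest with DMSO (870 and 851 CPM, against 239 and 252 CPM with CCF642 and 383 and 359 CPM with CCF642-34). IRF4 was at its lowest there, with 682 and 657 CPM, against 1127 and 1147 CPM with CCF642 and 1358 and 1355 CPM with CCF642-34. Of 4 B cell markers 0 were listed, and the listed markers of any other cell type searched summed to 13.4 CPM at most. Every listed gene reached at least 1.505 CPM in some library, so a marker that was not listed may still have been present at a lower level. The fibroblast list was represented by COL1A1 alone, at 1.09 to 1.50 CPM with DMSO, 8.99 to 10.5 CPM with CCF642 and 2.74 to 3.53 CPM with CCF642-34, and its other markers were not listed. The part of these marker shifts in the results below was not tested. In bulk RNA, fewer cells of a type and less RNA per cell cannot be told apart.

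Against DMSO, CCF642 raised 6 of the 10 members and lowered 1, and CCF642-34 raised 6 and lowered 2, at a Benjamini-Hochberg adjusted p under 0.05 in limma. BBC3 and PMAIP1 had by far the greatest increases with either compound, and they alone rose at least 2-fold. Of all genes tested, 63.1% passed with CCF642 (31.8% higher and 31.3% lower) and 57.6% with CCF642-34 (29.7% higher and 27.9% lower), so passing the threshold was common. The stricter rule, at least 2-fold with an unadjusted p under 0.05, took 6.49% of all genes with CCF642 (4.5% higher and 1.99% lower) and 3.88% with CCF642-34 (2.59% higher and 1.29% lower). It took 2 of 10 members with each compound, both higher. The median log2 fold change of the 10 members was 0.49 with CCF642 and 0.22 with CCF642-34, against -0.01 and 0.01 for all genes. Both comparisons use the same DMSO libraries. Whether the libraries of different groups overlap in CPM is described below before TMM scaling and without a test. With 2 libraries against 2, an exact permutation p cannot fall under 0.333. The share of all genes whose groups do not overlap was not counted. Fold changes are on the scale of log2(CPM + 1) after TMM scaling, in which a trimmed mean of log ratios sets the libraries to a common level. This scale understates changes of genes with low counts. With scaling by library size alone the median of all genes moved to -0.13 with CCF642, and the members then split into 6 higher and 4 lower.

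**Figure D1:**
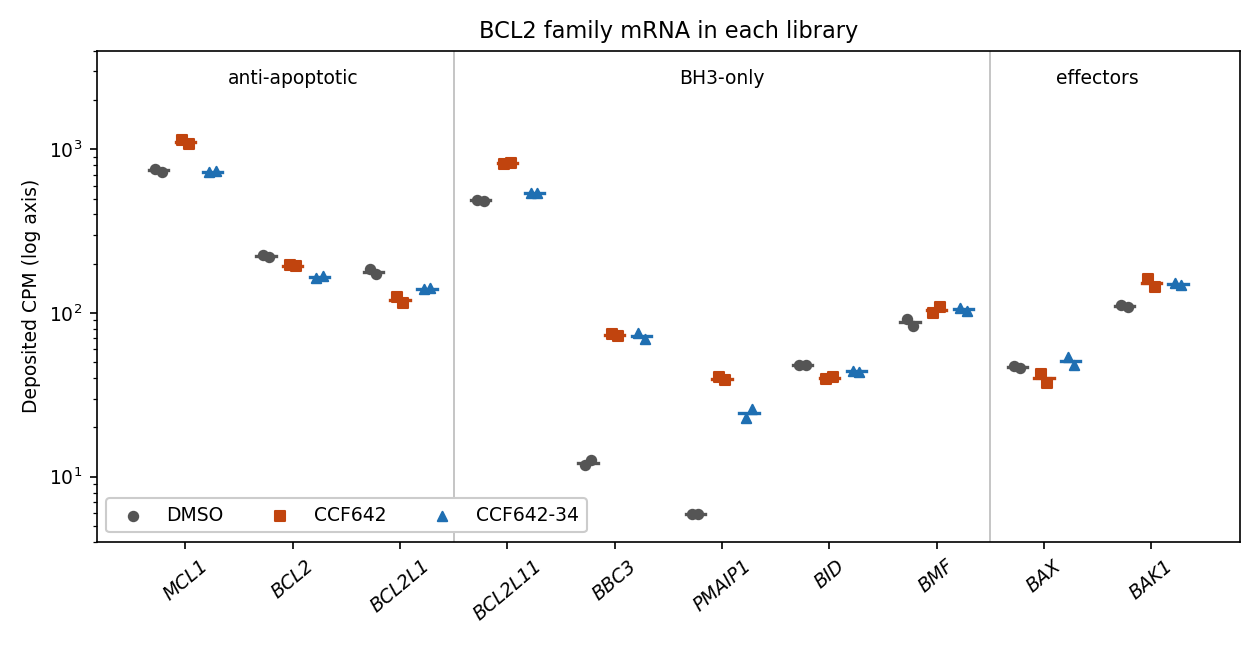
CPM of each family member in the 6 libraries on a log axis, with points for libraries and short lines for the mean of each group of 2. BBC3 and PMAIP1 lie far lower in the DMSO libraries (11.7 to 12.6 and 5.92 to 5.93 CPM) than in any treated library.

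Among the anti-apoptotic members the compounds gave different results. MCL1, a short-lived guardian that binds BIM, NOXA and BAK1, stood at 754 and 732 CPM in the DMSO libraries, 1132 and 1084 CPM with CCF642, and 728 and 734 CPM with CCF642-34. The CCF642 libraries stood well above the other groups, which overlapped. The gene ADAMTSL4-AS1 overlaps MCL1 on the same strand, so reads of the overlap cannot be assigned with certainty. MCL1 rose by 0.71 ± 0.04 (log2, SE, n = 2 per group, adjusted p = 1.84e-22) with CCF642, a 1.64-fold change. With CCF642-34 the difference from DMSO was 0.07 (95% interval -0.01 to 0.14, adjusted p = 0.109), and its sign depends on the scaling, being -0.02 with library size alone. This call is also near the threshold, with an adjusted p of 0.0485 when only the 2 groups were fitted and 0.0455 or 0.0454 without the CCF642 library 1 or 2.

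BCL2, the founding member and the target of venetoclax, had 225 and 221 CPM with DMSO, 196 and 193 CPM with CCF642, and 163 and 168 CPM with CCF642-34. The groups did not overlap in CPM. After TMM scaling only the decrease with CCF642-34 passed, at -0.34 ± 0.05 (adjusted p = 9.24e-09), while CCF642 gave -0.06 (95% interval -0.15 to 0.03, adjusted p = 0.240). With library size alone the value for CCF642 was -0.19 and passed. The genes AC022726.1, on the same strand, and AC022726.2, on the opposite strand, overlap BCL2.

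BCL2L1 fell with both compounds. Its levels were 186 and 172 CPM with DMSO, 126 and 116 CPM with CCF642, and 140 and 142 CPM with CCF642-34, without overlap. The log2 change was -0.43 ± 0.05 (adjusted p = 2.73e-10) with CCF642 and -0.25 ± 0.05 (adjusted p = 3.00e-05) with CCF642-34, the latter lost in a gene-wise linear model (adjusted p = 0.0665). In the gene model the antisense transcript ABALON overlaps BCL2L1, and strand-specific counting is not stated, so reads of the overlap cannot be assigned with certainty.

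Of the 5 BH3-only members 4 rose with CCF642 and the same 4 with CCF642-34, where 31.8% and 29.7% of all genes were higher. The size of these 4 changes differed widely. BBC3 encodes PUMA, which binds every main anti-apoptotic protein. It had 11.7 and 12.6 CPM with DMSO, 74.6 and 72.1 CPM with CCF642, and 75.7 and 69.1 CPM with CCF642-34, resting on 270 reads in each DMSO library and 1535 to 2154 in the treated ones. All treated libraries lay far above the DMSO libraries, and the treated groups overlapped. The increase was 6.16-fold with CCF642 (95% interval 5.55 to 6.85; log2 2.62 ± 0.08, adjusted p = 1.34e-32) and 5.90-fold with CCF642-34 (95% interval 5.31 to 6.55; log2 2.56 ± 0.08, adjusted p = 6.52e-32). In a gene-wise linear model the adjusted p was 0.0022 with CCF642 and 0.00334 with CCF642-34. By absolute log2 fold change BBC3 ranked 34 of 11048 genes with CCF642 and 21 with CCF642-34.

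PMAIP1 encodes NOXA, a BH3-only protein that binds MCL1 and is known to speed its breakdown. Its levels were 5.92 and 5.93 CPM with DMSO, 40.6 and 38.8 CPM with CCF642, and 22.9 and 26.0 CPM with CCF642-34, resting on 127 and 136 reads in the DMSO libraries. The 3 groups did not overlap. The increase was 6.39-fold with CCF642 (95% interval 5.55 to 7.37; log2 2.68 ± 0.10, adjusted p = 1.62e-27) and 3.87-fold with CCF642-34 (95% interval 3.36 to 4.46; log2 1.95 ± 0.10, adjusted p = 7.66e-22). These sizes depend on the scale. In edgeR on recovered reads the log2 increases were 2.88 and 2.13, and with 4 in place of 1 added to CPM they were 2.24 and 1.57. PMAIP1 ranked 31 with CCF642 and 51 with CCF642-34 among all genes by absolute log2 fold change.

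BCL2L11 encodes BIM, a direct activator of BAX and BAK1. It was counted at 492 and 483 CPM with DMSO, 812 and 827 CPM with CCF642, and 538 and 540 CPM with CCF642-34. The groups did not overlap, and the CCF642 libraries stood well above the others. The log2 change was 0.88 ± 0.04 (1.84-fold, adjusted p = 1.03e-25) with CCF642 and 0.23 ± 0.04 (1.18-fold, adjusted p = 5.22e-07) with CCF642-34. The long noncoding gene MIR4435-2HG overlaps BCL2L11 on the opposite strand.

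The promoters of these 3 genes are shown because their transcripts were the BH3-only members that rose most with CCF642. Each line gives the 250 bases before the start annotated by RefSeq (GRCh38.p14), 5′ to 3′ on the strand of the gene. Capitals mark letters that match a motif searched on both strands, TGANTCA for AP-1, GTAAACA for FOXO, CCAAT for NF-Y (read as ATTGG on the other strand) and TGACGT, part of the cyclic AMP response element (read as ACGTCA on the other strand). The windows are chr19:47232668-47232917 on the minus strand for BBC3, chr18:59899746-59899995 on the plus strand for PMAIP1 and chr2:111120664-111120913 on the plus strand for BCL2L11.
BBC3: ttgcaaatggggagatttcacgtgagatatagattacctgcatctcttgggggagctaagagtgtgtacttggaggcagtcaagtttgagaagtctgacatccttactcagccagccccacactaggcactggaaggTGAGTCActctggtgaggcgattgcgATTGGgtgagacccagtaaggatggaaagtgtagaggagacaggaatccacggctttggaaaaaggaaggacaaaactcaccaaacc
PMAIP1: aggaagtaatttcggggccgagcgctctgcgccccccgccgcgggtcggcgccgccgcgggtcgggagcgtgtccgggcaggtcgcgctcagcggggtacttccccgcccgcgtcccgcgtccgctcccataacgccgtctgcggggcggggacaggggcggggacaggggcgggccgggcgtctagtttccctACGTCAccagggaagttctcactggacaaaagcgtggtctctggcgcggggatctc
BCL2L11: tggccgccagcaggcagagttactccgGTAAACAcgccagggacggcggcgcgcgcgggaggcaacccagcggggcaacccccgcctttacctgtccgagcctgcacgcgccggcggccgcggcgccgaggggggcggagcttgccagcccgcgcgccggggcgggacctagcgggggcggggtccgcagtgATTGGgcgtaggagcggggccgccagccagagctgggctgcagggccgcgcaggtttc
The BBC3 window holds an AP-1 match at position -113 and a CCAAT match at -87, the PMAIP1 window a TGACGT match at -56, and the BCL2L11 window a FOXO match at -223 and a CCAAT match at -58, counted from the annotated start. Their base composition differed, with 49.2% G and C in the BBC3 window, 72.8% in that of PMAIP1 and 76.8% in that of BCL2L11, against a median of 58% over all 35116 windows.

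RefSeq windows, from 250 bases before to 50 after a start, matched 9 of the 10 members by symbol, and MCL1 had no entry. TGANTCA was found in 1 of the 9 (BBC3) and in 7.71% of all windows, GTAAACA in 1 (BCL2L11) and in 3.42%, and CCAAT in 5 (BBC3, BCL2L11, BMF, BAX and BAK1) and in 34.6%. TGACNNNGC, the antioxidant response element, was found in 2 (BAX at -89 and BCL2L1 at 16) and in 13.3%. The full cyclic AMP response element TGACGTCA and the composite element TTGCNTCA bound by C/EBP and ATF factors were found in 0 of the 9, and in 1.85% and 3.21% of all windows. TGACGT, which lies within TGACGTCA, was added to the search after the sequences were seen, and was found in 1 member (PMAIP1) and in 7.98% of all windows. These matches describe letters only, in the window of an annotated start, while BBC3 and PMAIP1 each have 2 annotated starts of coding transcripts and BCL2L11 has 6.

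The remaining BH3-only members moved little. BMF, released from the cytoskeleton under stress, had 91.9 and 83.4 CPM with DMSO, 100.5 and 109.5 CPM with CCF642, and 107 and 104 CPM with CCF642-34. Every treated library was above both DMSO libraries, and the treated groups overlapped. BMF rose by 0.39 ± 0.06 (adjusted p = 7.10e-08) and 0.35 ± 0.06 (adjusted p = 7.16e-07) on the log2 scale. The call with CCF642-34 was lost in a gene-wise linear model (adjusted p = 0.0571). The antisense gene BMF-AS1 overlaps BMF.

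BID, which caspase-8 cleaves to link death receptors to the mitochondrion, had 47.9 and 48.3 CPM with DMSO, 39.6 and 40.7 CPM with CCF642, and 44.2 and 43.6 CPM with CCF642-34. CPM did not overlap between the groups, but after TMM scaling the log2 differences were -0.12 (95% interval -0.27 to 0.02, adjusted p = 0.125) and -0.04 (95% interval -0.18 to 0.10, adjusted p = 0.646), neither of which passed. With library size alone the value for CCF642 was -0.25 and passed, and it also passed in a gene-wise linear model (adjusted p = 0.0315).

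The effectors differed from each other. BAK1, which resides in the outer membrane, had 112 and 108 CPM with DMSO, 161 and 144 CPM with CCF642, and 153 and 148 CPM with CCF642-34. The treated libraries overlapped and all lay above DMSO. BAK1 rose by 0.60 ± 0.05 (1.51-fold, adjusted p = 4.04e-14) with CCF642 and 0.54 ± 0.05 (1.45-fold, adjusted p = 1.45e-12) with CCF642-34. The pseudogene GGNBP1 overlaps BAK1 on the opposite strand, and reads could also be shared with the BAK1 copies BAK1P1 and BAK1P2, so its counts are less certain.

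BAX, which moves from the cytosol to mitochondria on activation, had 47.5 and 46.4 CPM with DMSO, 42.3 and 37.6 CPM with CCF642, and 54.1 and 48.1 CPM with CCF642-34. No groups overlapped, and the CCF642 libraries were the lowest. The log2 difference was -0.10 (95% interval -0.25 to 0.05, adjusted p = 0.241) with CCF642, and -0.23, past the threshold, with library size alone. With CCF642-34 BAX rose by 0.20 ± 0.07 (adjusted p = 0.0159). That call was lost with library size alone (0.12, adjusted p = 0.174), in DESeq2 on recovered reads (adjusted p = 0.0504), in a gene-wise linear model (adjusted p = 0.195), without DMSO library 2 (0.19, adjusted p = 0.0954) and without CCF642-34 library 1 (0.12, adjusted p = 0.289).

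**Figure D2:**
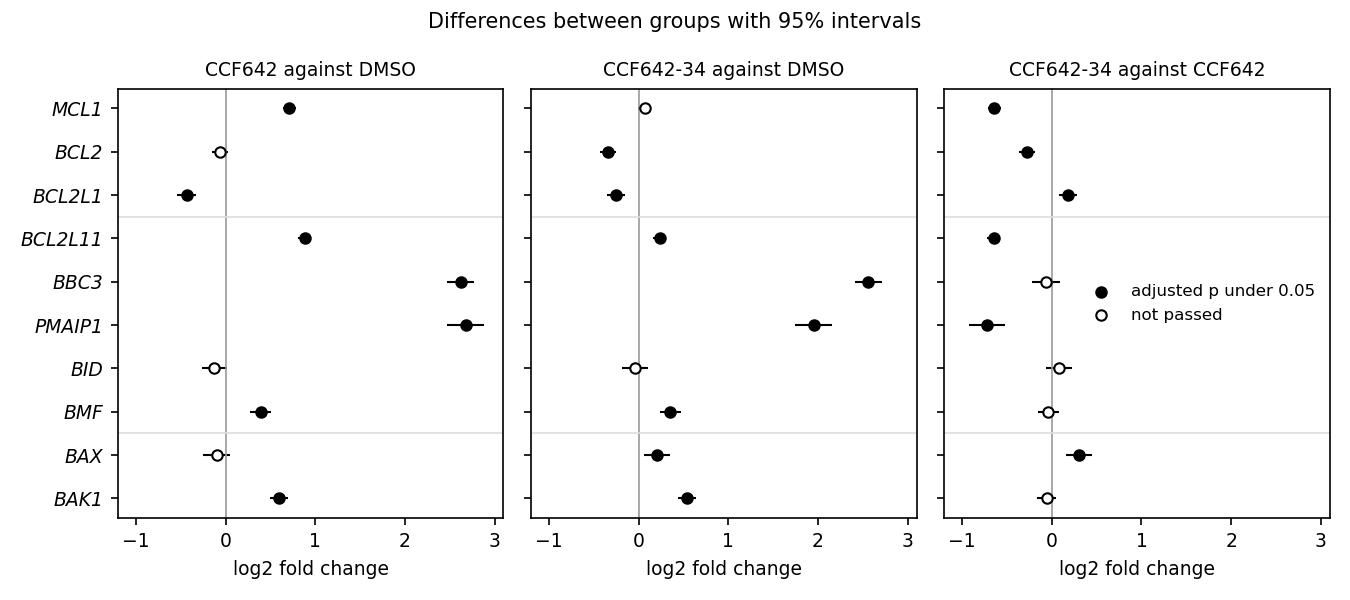
Log2 fold change of each member with its 95% interval in the 3 comparisons. Filled points passed an adjusted p under 0.05. BBC3 and PMAIP1 lie at 2.62 and 2.68 with CCF642, and in the right panel MCL1, BCL2L11 and PMAIP1 lie lower with CCF642-34 than with CCF642.

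CCF642-34 and CCF642, the only pair of compounds here, were compared directly at the same dose and time. Relative to CCF642, 2 members were higher with CCF642-34 and 4 were lower, where 33.4% of all genes passed (15.9% higher and 17.5% lower). No member differed at least 2-fold (0 of 10), a rule that 0.308% of all genes passed, 0.00905% higher and 0.299% lower. PMAIP1 stood at 0.606 of its CCF642 level (log2 -0.72 ± 0.10; 95% interval -0.93 to -0.52, adjusted p = 1.77e-07), BCL2L11 at 0.638 (log2 -0.65 ± 0.04, adjusted p = 2.01e-19) and MCL1 at 0.640 (log2 -0.64 ± 0.04, adjusted p = 1.06e-19). BCL2 was also lower (-0.28 ± 0.05, adjusted p = 2.86e-06).

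BAX and BCL2L1 were higher with CCF642-34 than with CCF642, by 0.30 ± 0.07 (adjusted p = 0.00107) and 0.18 ± 0.05 (adjusted p = 0.0046). Without CCF642-34 library 1 the BAX difference was 0.22 (adjusted p = 0.0812), and without CCF642 library 2 that of BCL2L1 was 0.13 (adjusted p = 0.0688). For the other 4 members no difference between the compounds passed. The interval was -0.22 to 0.09 for BBC3, -0.16 to 0.05 for BAK1, -0.15 to 0.08 for BMF and -0.06 to 0.23 for BID, all on the log2 scale. These bounds limit the difference in BBC3 to between 0.861-fold and 1.06-fold.

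To compare levels between genes, CPM were divided by the length in kilobases of the longest annotated transcript (GENCODE 29). With DMSO the order was MCL1 (189 ± 3.96 CPM per kilobase, SD, n = 2), BCL2L11 (93.2 ± 1.27), BCL2L1 (68.7 ± 3.81), BAK1 (49.7 ± 1.06), BAX (34.6 ± 0.573), BCL2 (29.9 ± 0.394), BID (19.3 ± 0.107), BMF (18.7 ± 1.29), BBC3 (6.63 ± 0.335) and PMAIP1 (3.04 ± 0.00657). Only BID and BMF, neighbours in that order, overlapped between libraries.

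BBC3 moved from place 9 to place 5 with both compounds, at 39.9 ± 0.992 CPM per kilobase with CCF642 and 39.4 ± 2.54 with CCF642-34. PMAIP1 reached 20.4 ± 0.681 with CCF642, which put it above BID, and 12.6 ± 1.13 with CCF642-34, where it stayed in place 10. BAK1 passed BCL2L1 with both compounds. With CCF642 no neighbours overlapped, and with CCF642-34 BBC3 overlapped BAX and BMF overlapped BCL2. Places depend on the length used. With the median transcript length BCL2L11 came before MCL1 and BCL2L1 before BAK1 in all groups, and BBC3 went from place 9 to place 8 with CCF642 and to place 7 with CCF642-34.

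**Figure D3:**
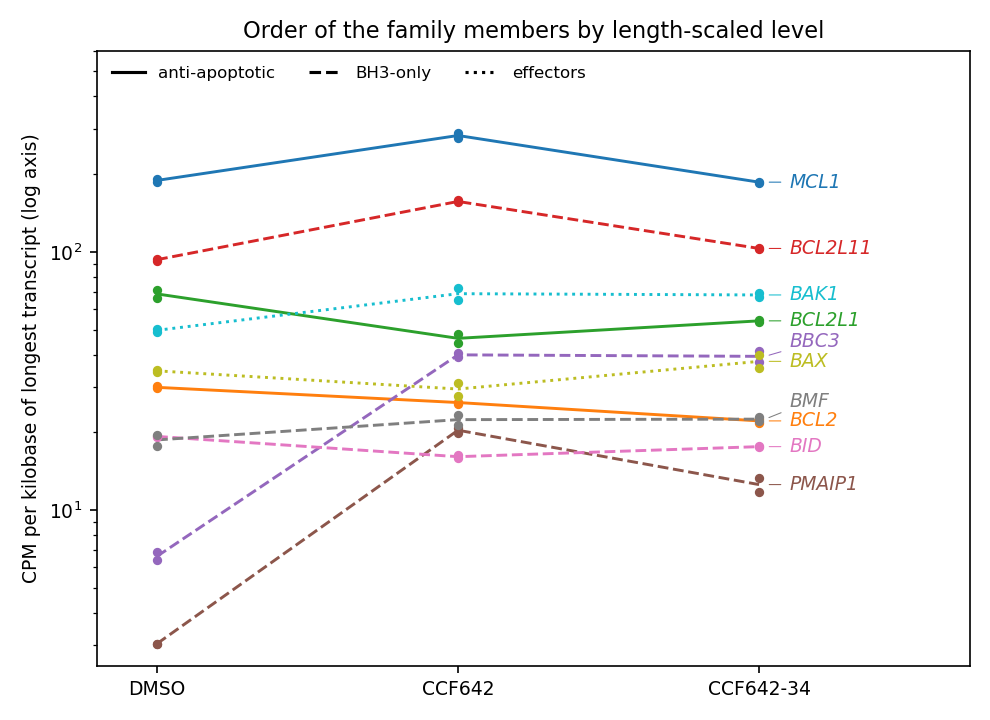
CPM per kilobase of the longest transcript on a log axis, with points for libraries and lines joining the means of the 3 groups, solid for anti-apoptotic, dashed for BH3-only and dotted for effector genes. On this length the mean of BBC3 climbs past those of BCL2, BAX, BID and BMF with both compounds, though its CCF642-34 libraries overlap those of BAX. With the median transcript length BBC3 stays below BAX and BMF.

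Ratios between members within a library are free of library scaling, though their size depends on the lengths used. They are described without a test, since 2 libraries against 2 cannot give an exact permutation p under 0.333. MCL1 to PMAIP1 was 63.1 and 61.1 with DMSO, 13.8 and 13.9 with CCF642, and 15.7 and 14.0 with CCF642-34. Both compounds gave ratios far under those of DMSO and close to each other, though both CCF642-34 libraries were above both CCF642 libraries. Each of the transcripts was higher with CCF642 than with CCF642-34. The ratio of BCL2L11 to MCL1 was 0.491 and 0.496 with DMSO, 0.539 and 0.573 with CCF642, and 0.555 and 0.553 with CCF642-34. The treated groups overlapped in this ratio, and both were above DMSO.

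MCL1 to BBC3 separated the compounds more clearly than MCL1 to PMAIP1. It was 30.0 and 27.1 with DMSO, 7.09 and 7.04 with CCF642, and 4.50 and 4.97 with CCF642-34, the lowest values. BAK1 to BAX was 1.44 and 1.43 with DMSO, 2.33 and 2.34 with CCF642, and 1.74 and 1.89 with CCF642-34. The groups did not overlap in either ratio.

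Summed over members, the BH3-only genes stood at 0.490 ± 0.00656 of the anti-apoptotic genes with DMSO, 0.722 ± 0.0295 with CCF642 and 0.744 ± 0.0130 with CCF642-34 (SD, n = 2). The treated groups overlapped. The sums behind these similar ratios differed. The anti-apoptotic sum was 287 ± 8.17 CPM per kilobase with DMSO, 354 ± 11.6 with CCF642 and 262 ± 2.16 with CCF642-34, and the BH3-only sum was 141 ± 2.12, 255 ± 2.07 and 195 ± 1.81. BBC3 and PMAIP1 together made up 6.87% ± 0.346 of the BH3-only sum with DMSO, 23.6% ± 0.846 with CCF642 and 26.6% ± 0.480 with CCF642-34. MCL1 made up 65.7% ± 0.490, 79.6% ± 0.178 and 70.9% ± 0.161 of the anti-apoptotic sum. These sums and shares used the longest transcripts, 5231 bases for BCL2L11 and 4687 for BMF, against medians of 883 and 650.5 bases. With other lengths their pattern between the groups can change, and not only their size. They were not recalculated with the median length.

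**Figure D4:**
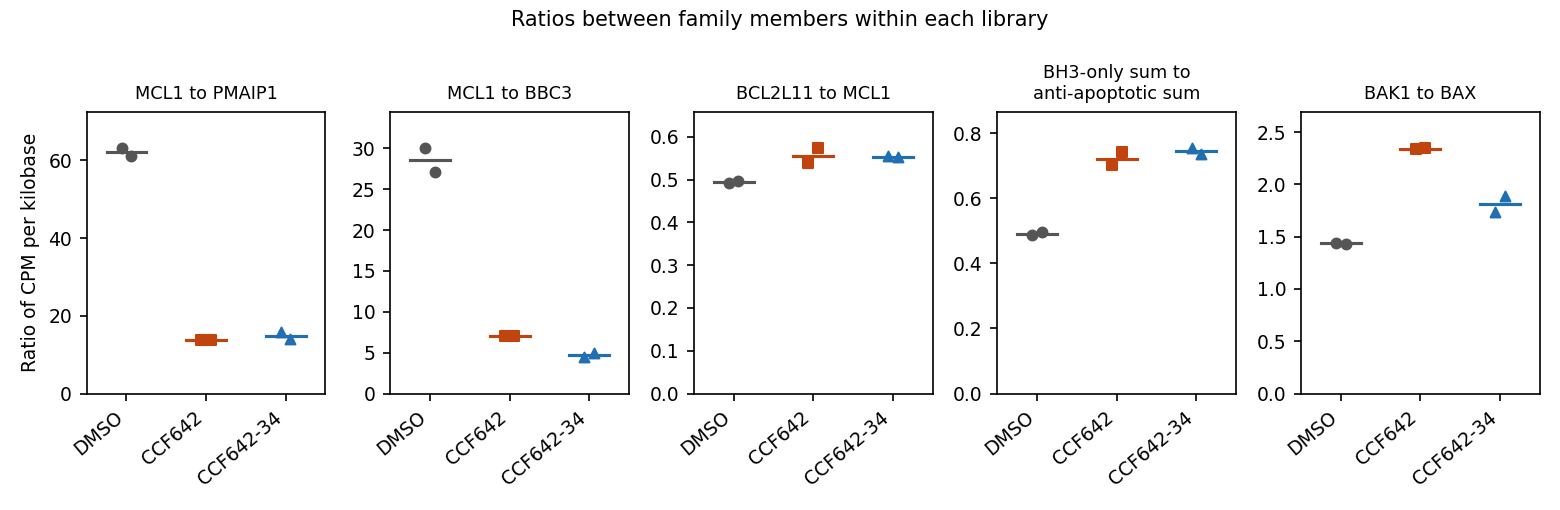
Ratios of CPM per kilobase of the longest transcript between members in each library, with lines at the mean of each group of 2 and axes starting at 0. The CCF642 and CCF642-34 libraries overlap for BCL2L11 to MCL1 and for the BH3-only sum to the anti-apoptotic sum, and are apart for MCL1 to BBC3 and BAK1 to BAX. For MCL1 to PMAIP1 they lie close together without overlap.

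Genes with a profile most like that of a member were found by the distance between centred log2 profiles over the 6 libraries. For BBC3, whose own profile has a length of 3.00 on the log2 scale, the nearest were CDKN1A (distance 0.21), the cell cycle inhibitor p21, SLC6A9 (0.22), a glycine transporter, and RAB39B (0.24). CDKN1A had 20.8 and 19.6 CPM with DMSO, 135 and 123 CPM with CCF642, and 118 and 113 CPM with CCF642-34. For MCL1 (length 0.79) they were EID3 (0.09), HEXIM1 (0.10), an inhibitor of the elongation factor P-TEFb, and TEAD1 (0.11), with EID3 at only 0.57 to 1.56 CPM. EID3 had 0.57 and 0.65 CPM with DMSO and 1.56 and 1.46 CPM with CCF642. At such levels the scale of log2(CPM + 1) shrinks changes, so the likeness of EID3 to MCL1 depends on that scale. TEAD1 had 260 and 263 CPM with DMSO, 415 and 405 CPM with CCF642, and 249 and 255 CPM with CCF642-34. For BCL2 (length 0.36), the member with the lowest log2 fold change with CCF642-34, they were CHTF8 (0.06), PAXBP1 (0.06) and NR2C2 (0.06).

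Of 13 further BCL2 family genes 9 were listed, and BCL2A1, BCL2L10, BCL2L14 and BOK were not. With CCF642, 4 were higher (BAD, BIK, HRK and BCL2L15) and 1 was lower (BCL2L12), and with CCF642-34 3 were higher (BCL2L13, BIK and HRK) and 0 lower. Of all genes, 63.1% passed with CCF642 and 57.6% with CCF642-34, so these counts are no more than common. Every listed gene reached at least 1.505 CPM in some library. BIK, HRK and BCL2L15 did so only in treated libraries, and BCL2L2 only with DMSO. These genes were thus listed only through the groups where they were higher, which favoured a difference in that direction, and their tests carry little weight. None of the 9 reached 2-fold on the scale of log2(CPM + 1), where the pseudocount of 1 shrinks changes of genes near 1 CPM. In mean CPM, BCL2L15 went from 0.266 with DMSO to 1.25 with CCF642, BIK from 0.926 with DMSO to 2.65 with CCF642-34 and HRK from 0.523 with DMSO to 1.44 with CCF642-34. The BH3-only genes BIK and HRK were scarce, at 0.87 to 2.77 CPM and 0.39 to 1.80 CPM over all libraries, with log2 changes of 0.62 and 0.72 with CCF642 (adjusted p = 0.00834 and 0.00691) and 0.97 and 0.71 with CCF642-34 (adjusted p = 8.37e-05 and 0.00899). BCL2L13, a mitophagy receptor, had 75.1 and 73.4 CPM with DMSO, 69.5 and 76.7 CPM with CCF642, and 91.2 and 93.7 CPM with CCF642-34, a log2 rise of 0.40 with the latter (adjusted p = 1.17e-07).

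BAD, a BH3-only protein silenced by phosphorylation, rose by 0.23 with CCF642 (adjusted p = 0.0101), and BCL2L12 fell by 0.29 on the log2 scale (adjusted p = 0.00832). BCL2L15 rose by 0.86 with CCF642 (adjusted p = 0.00266) at 0.14 to 1.68 CPM over all libraries. It had 0.39 and 0.14 CPM with DMSO and 0.83 and 1.68 CPM with CCF642, so its replicates differed widely. Only CCF642 library 2 exceeded 1.505 CPM for this gene. The anti-apoptotic BCL2L2 was at 0.46 to 1.70 CPM, with log2 differences of -0.51 (adjusted p = 0.0592) and -0.53 (adjusted p = 0.0545). The hypoxia gene BNIP3 was at 0.97 to 2.48 CPM and BNIP3L at 49.1 to 59.6 CPM, and neither passed with either compound. The median log2 fold change of the 9 genes was 0.11 with CCF642 and 0.06 with CCF642-34.

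Of 15 transcription factors known to act on the members, 9 were higher and 3 lower with CCF642 (5 and 1 of them at least 2-fold), and 10 higher and 4 lower with CCF642-34 (5 and 2), where 63.1% and 57.6% of all genes passed and 6.49% and 3.88% did at 2-fold. ATF4, the main transcription factor of the integrated stress response, had 411 and 428 CPM with DMSO, 1101 and 1060 CPM with CCF642, and 1125 and 1103 CPM with CCF642-34, a rise of 1.50 on the log2 scale with each compound. DDIT3, which encodes CHOP, rose by 3.42 and 3.32. For both factors the direct comparison of the compounds did not pass (adjusted p = 0.994 and 0.192).

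ATF3 rose by 6.01 with CCF642 and 5.25 with CCF642-34, JUN, an AP-1 subunit, by 3.05 and 2.01, and FOXO1 by 1.91 and 1.11, and each was lower with CCF642-34 than with CCF642 (adjusted p = 2.71e-20, 3.84e-26 and 2.11e-10). JUN stood at 144 and 148 CPM with DMSO, 1105 and 1102 CPM with CCF642, and 568 and 539 CPM with CCF642-34. MYC fell by 2.04 with CCF642 and by 1.25 with CCF642-34, and TP73 fell by 0.98 and 1.13.

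Genes that govern the protein turnover of MCL1 and NOXA were counted as a list of 8, of which 6 were listed. With CCF642, 3 were higher and 2 lower, and with CCF642-34 1 was higher and 2 lower, none 2-fold, with medians of 0.06 and -0.09. Of 10 anchors and ER partners of the family, such as dynein light chains, VDAC channels and inositol trisphosphate receptors, 3 were higher and 5 lower with CCF642, and 2 and 2 with CCF642-34. Of 10 genes acting after the release of cytochrome c, among them APAF1 and the caspases, 4 were higher and 2 lower with CCF642, and 5 and 1 with CCF642-34. These counts stand beside 63.1% of all genes passing with CCF642 and 57.6% with CCF642-34. No gene of these 3 lists changed 2-fold, and their medians lay between -0.09 and 0.13.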

How the data were processed

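RNA of 6 MM1.S libraries was sequenced after oligo(dT) enrichment and random-hexamer priming. The authors deposited CPM values for 11048 gene symbols per library. The unit is not stated and was inferred, since all values (100%, tolerance 0.02 reads) were whole multiples of the share of 1 read. The submitters' processing notes name STAR, hg19, edgeR 3.24.3 and limma 3.38.3 without their roles. The counting tool, annotation and strand setting are not given in the sources used here. A table of the whole series was not used.

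CPM were scaled with TMM factors (edgeR 4.0.16), increased by a pseudocount of 1, converted to log2 and fitted for the 3 groups together with limma 3.58.1 (eBayes with trend, R 4.3.3), with 3 residual degrees of freedom and a prior of 42.9. No filter was added to the deposited genes, each of which reached at least 1.505 CPM in some library. Tests were two-sided, with Benjamini-Hochberg adjustment across the 11048 genes of each of 3 comparisons. The fits were also run on simulated data in which genes of like level shared the same spread. That run cannot check how small the p-values of the real data are. All 10 members were named. Of the surrounding lists, the further BCL2 family genes that were listed and genes past 2-fold were named, with the 3 nearest profiles of BBC3, BCL2 and MCL1. The members and lists were chosen with earlier results of these data known. Lengths came from GENCODE 29 (GRCh38) and promoters from RefSeq (GRCh38.p14), and no coordinates of the files were used. Alternatives included DESeq2 1.42.0, edgeR and limma-voom on recovered reads.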

Additional observations from a re-analysis of the deposited data

How the results depend on the processing

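The 10 members were refitted under 18 alternatives in each comparison. With CCF642 against DMSO 176 of 180 values kept their direction and side of the threshold and 4 newly passed, with CCF642-34 against DMSO 169 did, 3 newly passed, 7 no longer passed and 1 reversed, and with CCF642-34 against CCF642 172 did, 4 no longer passed and 4 reversed. A gene-wise linear model, which does not share the variance between genes, called 5 members (4 higher and 1 lower) in place of 8 with CCF642-34 against DMSO, and the share of all genes called fell from 57.6% to 37.2% there and from 33.4% to 6.68% between the compounds, where BAX and BCL2L1 no longer passed. Library size alone gave -0.022 for MCL1 with CCF642-34 against DMSO and 0.0074 for BMF between the compounds, and moved the split of all genes called with CCF642 from 31.8% higher and 31.3% lower to 22.9% and 42.9%, with CCF642-34 to 22.6% and 36%, and between the compounds from 15.9% and 17.5% to 21.8% and 13.5%. None of the reversed values passed the test. Without 1 library at a time, the log2 difference between the compounds ran from -0.14 to 0.018 for BAK1 (reversed without CCF642 library 1), from -0.10 to 0.029 for BMF (without CCF642 library 2) and from -0.13 to 0.0063 for BBC3 (without CCF642-34 library 2), and 0 of the 10 members reached 2-fold between the compounds. The cause of these changes was not tested. Replicate numbers did not pair the libraries (correlations of deviations -0.01, -0.06 and 0.05), and a replicate block left 7, 8 and 6 members called. The 127 reads of PMAIP1 in a DMSO library and the 2 libraries per group limit the precision.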
